A study of Homo sapiens with 12 samples.

Results

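The 45 genes described here are interferon-stimulated genes, which cells transcribe after type I or type II interferon has bound its receptor. They were chosen as a list of gene symbols and matched exactly to the symbols of the count table, in which they make up 45 of 58307 rows that name a gene. Type I interferon binds the receptor pair of IFNAR1 and IFNAR2, whose kinases TYK2 and JAK1 activate a complex with STAT2 and IRF9 that binds the interferon-stimulated response element (ISRE) of its target genes. Type II interferon signals through JAK1 and JAK2, and its target genes carry the gamma-activated sequence (GAS). The products of the target genes sense viral RNA, stop translation, block entry or exit of viruses and, as with STAT2, IRF9 and USP18, feed back on the pathway itself.

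The libraries were made from polyA-selected RNA of A375 and SK-MEL-28, established human malignant melanoma cell lines. Each line was given etoposide, a topoisomerase II poison that leaves DNA double-strand breaks, with or without rapamycin, an inhibitor of the mTOR kinase complex that induces autophagy. The 4 groups were A375 etoposide, A375 etoposide + rapamycin, SK-MEL-28 etoposide and SK-MEL-28 etoposide + rapamycin, with 3 libraries each and 12 in all. Every group carried etoposide and no library was untreated, so the values compare rapamycin added to etoposide with etoposide alone, and the labels give neither dose nor time. Each library is a bulk measurement of one cell line, in which fewer cells expressing a gene and less RNA per cell cannot be told apart. Totals ran from 28189501 to 32499337 counts per library, and levels are given as CPM, counts divided by the scaled library total and set to a common size, after scaling by the trimmed mean of M-values (TMM).

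Of the lineage markers, SOX10, a neural crest and melanocyte transcription factor, reached 166 to 581 CPM, and AXL, NGFR and S100B, of the neural crest and dedifferentiated melanoma list, were between 56.9 and 280 CPM in all 12 libraries. With rapamycin AXL was higher without overlap, at 269.9 against 176 CPM in A375 and 276 against 192 CPM in SK-MEL-28, and NGFR was lower without overlap, at 119 against 177 and 224 against 269 CPM. MITF, the melanocyte master regulator, was also lower without overlap, at 13.5 against 19.2 CPM in A375 and 20.1 against 28.3 CPM in SK-MEL-28. S100B was lower without overlap in A375, at 58.5 against 87.0 CPM. In SK-MEL-28 its groups overlapped, at 87.8 against 98.2 CPM. Of all genes tested, 21.4% in A375 and 17.8% in SK-MEL-28 were higher without overlap, and 21.1% and 18.1% were lower. The pigment genes of melanocytes were low in both lines: MLANA, PMEL, DCT and TYRP1 lay between 0.202 and 2.99 CPM, and TYR was at 0 in 8 of the 12 libraries. The paper states that the lines came from a culture collection without further authentication, and their identity was not tested here. Of the leukocyte markers, PTPRC, CD3E and CD14 never passed 0.628 CPM, while CD68, whose row shares a locus with other genes, was at 19.6 to 52.2 CPM. The defining markers of plasmacytoid dendritic cells, CLEC4C and LILRA4, were at 0 in 11 and 9 libraries and never above 0.134 CPM, while the third of that list, IL3RA, was at 1.71 to 4.48 CPM in all 12. The summed level of 3 fibroblast markers (DCN, LUM, PDGFRA) was 15.7 to 20.5 CPM in A375 under etoposide and 12.0 to 13.0 under etoposide + rapamycin, and 29.9 to 36.8 against 20.6 to 23.5 CPM in SK-MEL-28. That of 3 endothelial markers (PECAM1, VWF, CDH5) was 6.66 to 9.35 CPM under etoposide and 5.85 to 6.59 with rapamycin in A375, and 4.70 to 5.99 against 3.49 to 3.96 CPM in SK-MEL-28. Their part in the results below was not tested.

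RefSeq promoter windows (GRCh38.p14), 250 bases before to 50 after an annotated start, were matched for 37 of the 45 genes; DHX58, OAS2, OASL, IRF7, IFIT2, MX2, IFITM2 and USP18 had no entry. The stretches below are shown because they hold the letters that name the pathway: the ISRE core, which is GAAA, then any 2 bases, then GAAA, searched on both strands, and the GAS core TTCNNNGAA, which reads the same on both. Each runs along the strand of its gene, and the capitals mark the matches. IFIT1 (chr10:89392492-89392544, plus strand), IFIT3 (chr10:89332420-89332502, plus) and ISG15 (chr1:1013369-1013414, plus) hold pairs of ISRE cores, overlapping in ISG15. OAS3 (chr12:112938316-112938486, plus) and IFITM3 (chr11:320871-320927, minus) hold 2 each, and DTX3L (chr3:122564317-122564356, plus) holds 1 that lies in the divergent promoter it shares with PARP9. BST2 (chr19:17405665-17405781, minus) joins 2 ISRE cores to a GAS core in 1 run and has a second GAS core downstream. IRF1 (chr5:132490874-132490912, minus) and IRF9 (chr14:24161187-24161225, plus) have the GAS core alone.
IFIT1: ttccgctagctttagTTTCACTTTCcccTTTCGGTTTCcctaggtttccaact
IFIT3: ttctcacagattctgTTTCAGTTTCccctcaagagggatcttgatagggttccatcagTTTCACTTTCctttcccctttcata
ISG15: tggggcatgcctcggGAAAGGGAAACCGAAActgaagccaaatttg
OAS3: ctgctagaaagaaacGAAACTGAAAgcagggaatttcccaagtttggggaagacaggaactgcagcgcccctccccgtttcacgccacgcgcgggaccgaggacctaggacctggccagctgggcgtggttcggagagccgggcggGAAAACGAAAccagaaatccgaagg
DTX3L: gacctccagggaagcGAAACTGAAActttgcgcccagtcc
IFITM3: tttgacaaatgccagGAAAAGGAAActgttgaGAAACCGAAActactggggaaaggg
BST2: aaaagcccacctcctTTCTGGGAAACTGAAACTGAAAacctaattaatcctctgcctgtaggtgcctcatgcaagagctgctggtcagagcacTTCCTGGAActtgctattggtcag
IRF1: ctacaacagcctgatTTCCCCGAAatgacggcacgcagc
IRF9: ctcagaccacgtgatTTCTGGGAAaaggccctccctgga

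The ISRE core was found in 26 of the 37 genes (70.3%), against 1195 of 27305 genes with a window (4.38%). The GAS core was found in 12 of the 37 (32.4%), against 9.38% of all genes with a window. Both cores were present in 7 genes, with overlapping letters in 5 of them, the GAS core alone in 5 and neither in 6 (DDX58, STAT2, HERC6, SAMD9L, CMPK2 and XAF1). The plot of motif positions places the ISRE cores between -196 (MX1) and 23 (TRIM21), counted in bases from the start at 0, and 15 genes held at least 2. A match is a description of the letters and not evidence of binding.

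**Figure D1:**
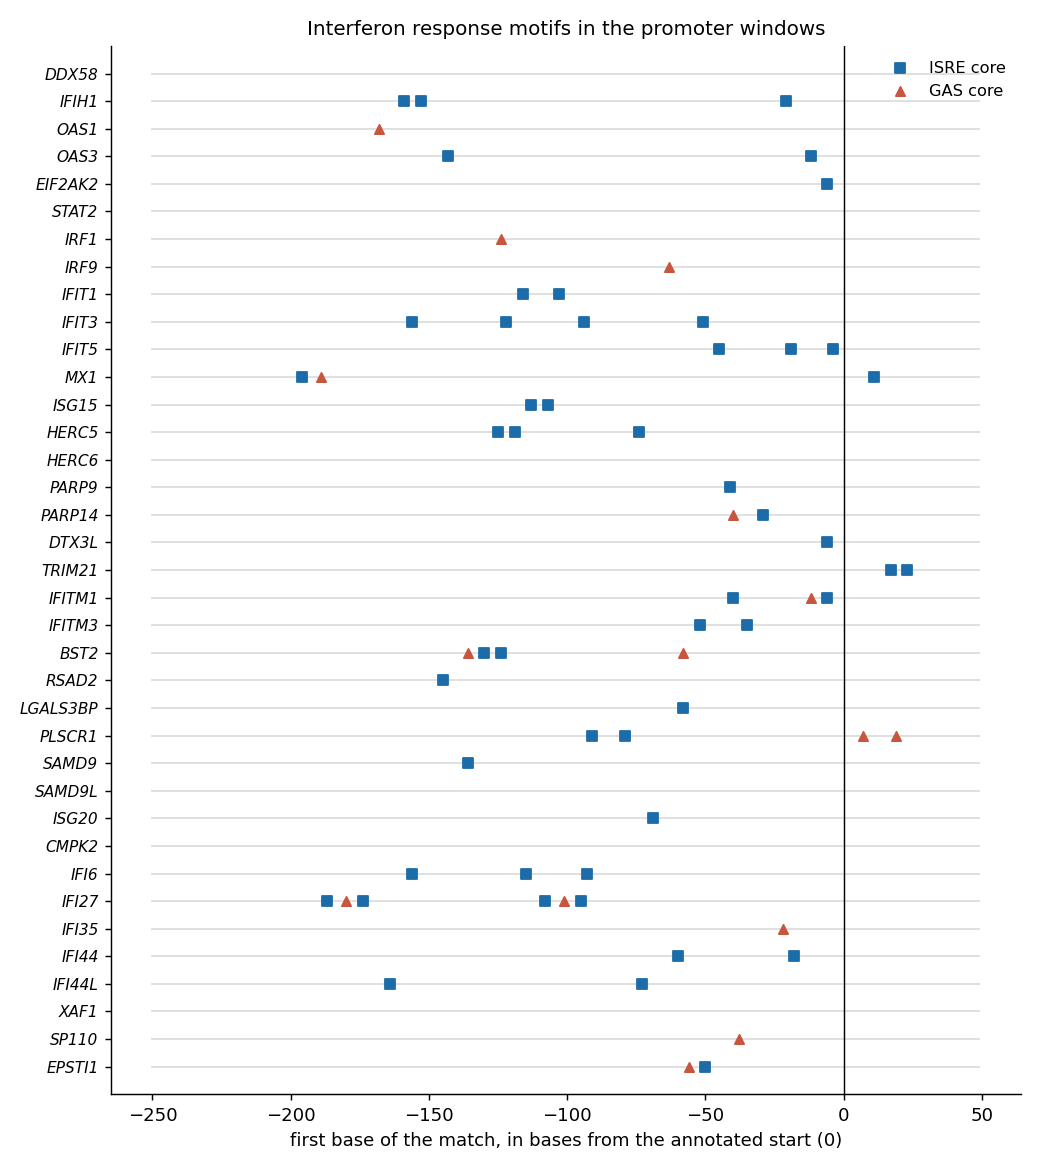
Position of each ISRE core (squares) and GAS core (triangles) in the RefSeq promoter windows of the 37 genes, in bases from the annotated start at 0; the grey line is the window searched. ISRE cores were found in 26 genes and GAS cores in 12, and 6 genes had neither; where a gene has more than 1 annotated start, each match is drawn from its own start.

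The genes were expressed at very different levels before any comparison. Per kilobase of the canonical transcript, LGALS3BP, a secreted glycoprotein that binds galectins, averaged 384 CPM per kb over the 4 groups, and IFITM3, which blocks the fusion of virus and endosome, averaged 355. IFI35 followed at 53.9, ISG20 at 48.2 and IFI6 at 37.8 CPM per kb. At the low end were EPSTI1 with 0.110 and RSAD2 with 0.155 CPM per kb. Summed over the 45 genes the level was 1865 ± 30.2 CPM (SD, n = 3) in A375 under etoposide and 1824 ± 27.7 under etoposide + rapamycin, and 2425 ± 10.1 against 2220 ± 31.0 CPM in SK-MEL-28. Without LGALS3BP these sums were 1068 ± 11.2, 1023 ± 19.0, 1496 ± 43.6 and 1368 ± 29.0 CPM. Over all 45 genes the A375 groups overlapped, with 1792 to 1845 CPM with rapamycin against 1830.2 to 1885 without it, and the SK-MEL-28 groups did not. Without LGALS3BP the 3 libraries with rapamycin lay below the other 3 in each line. Such sums are led by the most abundant genes and do not show how many genes fell. The ranges were 1001 to 1036 against 1055 to 1075 CPM in A375 and 1343 to 1400 against 1458 to 1543 CPM in SK-MEL-28.

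**Figure D2:**
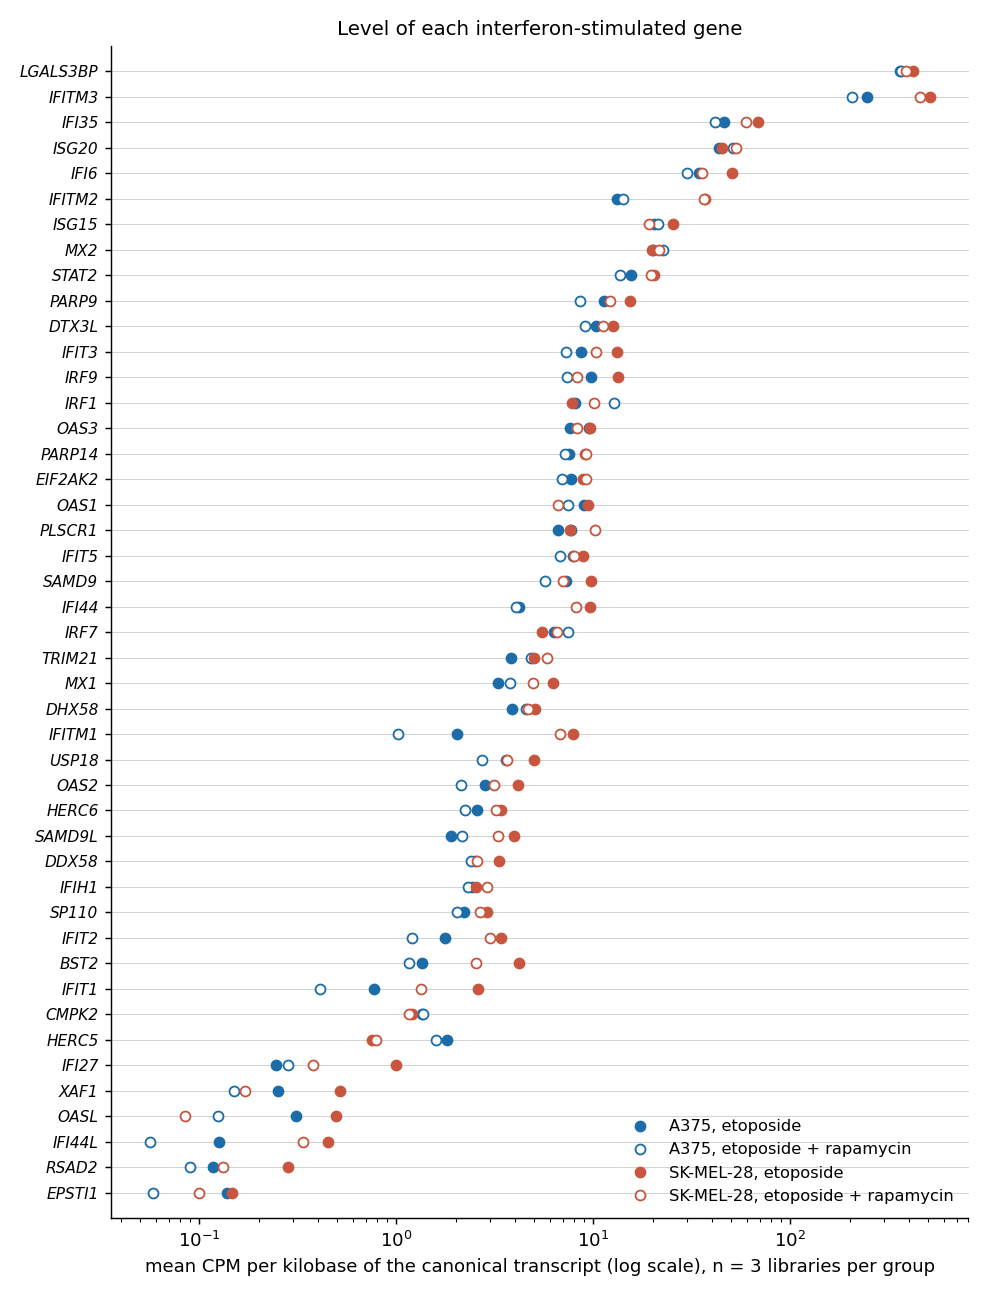
Mean CPM per kilobase of each of the 45 genes in the 4 groups (log axis; 3 libraries per group; filled, etoposide; open, etoposide + rapamycin). Levels span from 0.110 CPM per kb (EPSTI1) to 384 CPM per kb (LGALS3BP) on average over the groups.

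The first question was what rapamycin did to these genes in A375. Of 44 genes tested, 15 fell and 4 rose at an adjusted p under 0.05 (edgeR quasi-likelihood test, Benjamini-Hochberg over 18844 genes). IFI27, with 2 to 12 counts per A375 library, was too low to test. The 15 that fell are 34.1% of those tested, against 13.8% of all genes, and the 4 that rose are 9.09%, against 14.3%. The falls were mostly small: the median log2 fold change of the 44 genes was -0.19, against -0.0051 for all genes, and 30 of the 44 were negative. With a change of over 1.5-fold also required, IFIT1, IFITM1 and OASL were lower (6.82%, against 2.80% of all genes) and IRF1 was higher (2.27%, against 3.09%), which makes 4 of 44 called against 5.89% of all genes. The groups did not overlap in 20 genes that were lower and 6 that were higher with rapamycin, against 21.1% and 21.4% of all genes. With any 1 library left out, between 7 and 10 genes fell: 9, 8 and 7 without etoposide + rapamycin replicates 1, 2 and 3, and 8, 7 and 10 without etoposide replicates 1, 2 and 3. The share of all genes that fell in these fits was 9.69% to 13.0%. PARP9, IFITM3 and SAMD9 fell in all 6 of these fits, and OAS3, IRF1 and ISG20 rose in all 6.

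In SK-MEL-28, 19 of 45 genes fell (42.2%, against 10.1% of all genes) and 3 rose (6.67%, against 8.83%) by the same test over 18897 genes. The median log2 fold change was -0.22, against 0.0053 for all genes, and 35 of the 45 were negative. Past 1.5-fold, BST2, IFIT1, IRF9 and OASL were lower and none was higher, 4 of 45 against 4.99% of all genes, of which 3.14% were lower and 1.85% higher. The groups did not overlap in 21 genes that were lower and 4 that were higher, against 18.1% and 17.8% of all genes. With 1 library left out, 17, 12 and 11 genes fell without etoposide + rapamycin replicates 1, 2 and 3, and 13, 12 and 10 without etoposide replicates 1, 2 and 3, against 6.76% to 8.51% of all genes in these fits. OAS1, OASL, IRF9, IFIT1, IFIT3, PARP9, SAMD9 and IFI6 fell in all 6 of these fits.

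The lines, whose identity was not tested, share no libraries. In both, 11 genes fell: OASL, OAS2, IRF9, IFIT1, IFIT3, USP18, PARP9, DTX3L, IFITM3, SAMD9 and IFI35. They are 11 of the 15 that fell in A375 and 11 of the 19 that fell in SK-MEL-28, and 11 of the 44 tested in both lines, where 5.57% of all genes fell in both. OASL and IFIT1 did so past 1.5-fold in each line (4.55%, against 1.20% of all genes). Only PARP9 and SAMD9 of the 11 also fell, in each line, in every fit that left out 1 library. IRF1 and ISG20 rose in both (4.55%, against 5.26% of all genes), and OAS3 went up in one line and down in the other. The plot of fold changes gives every gene by its role.

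**Figure D3:**
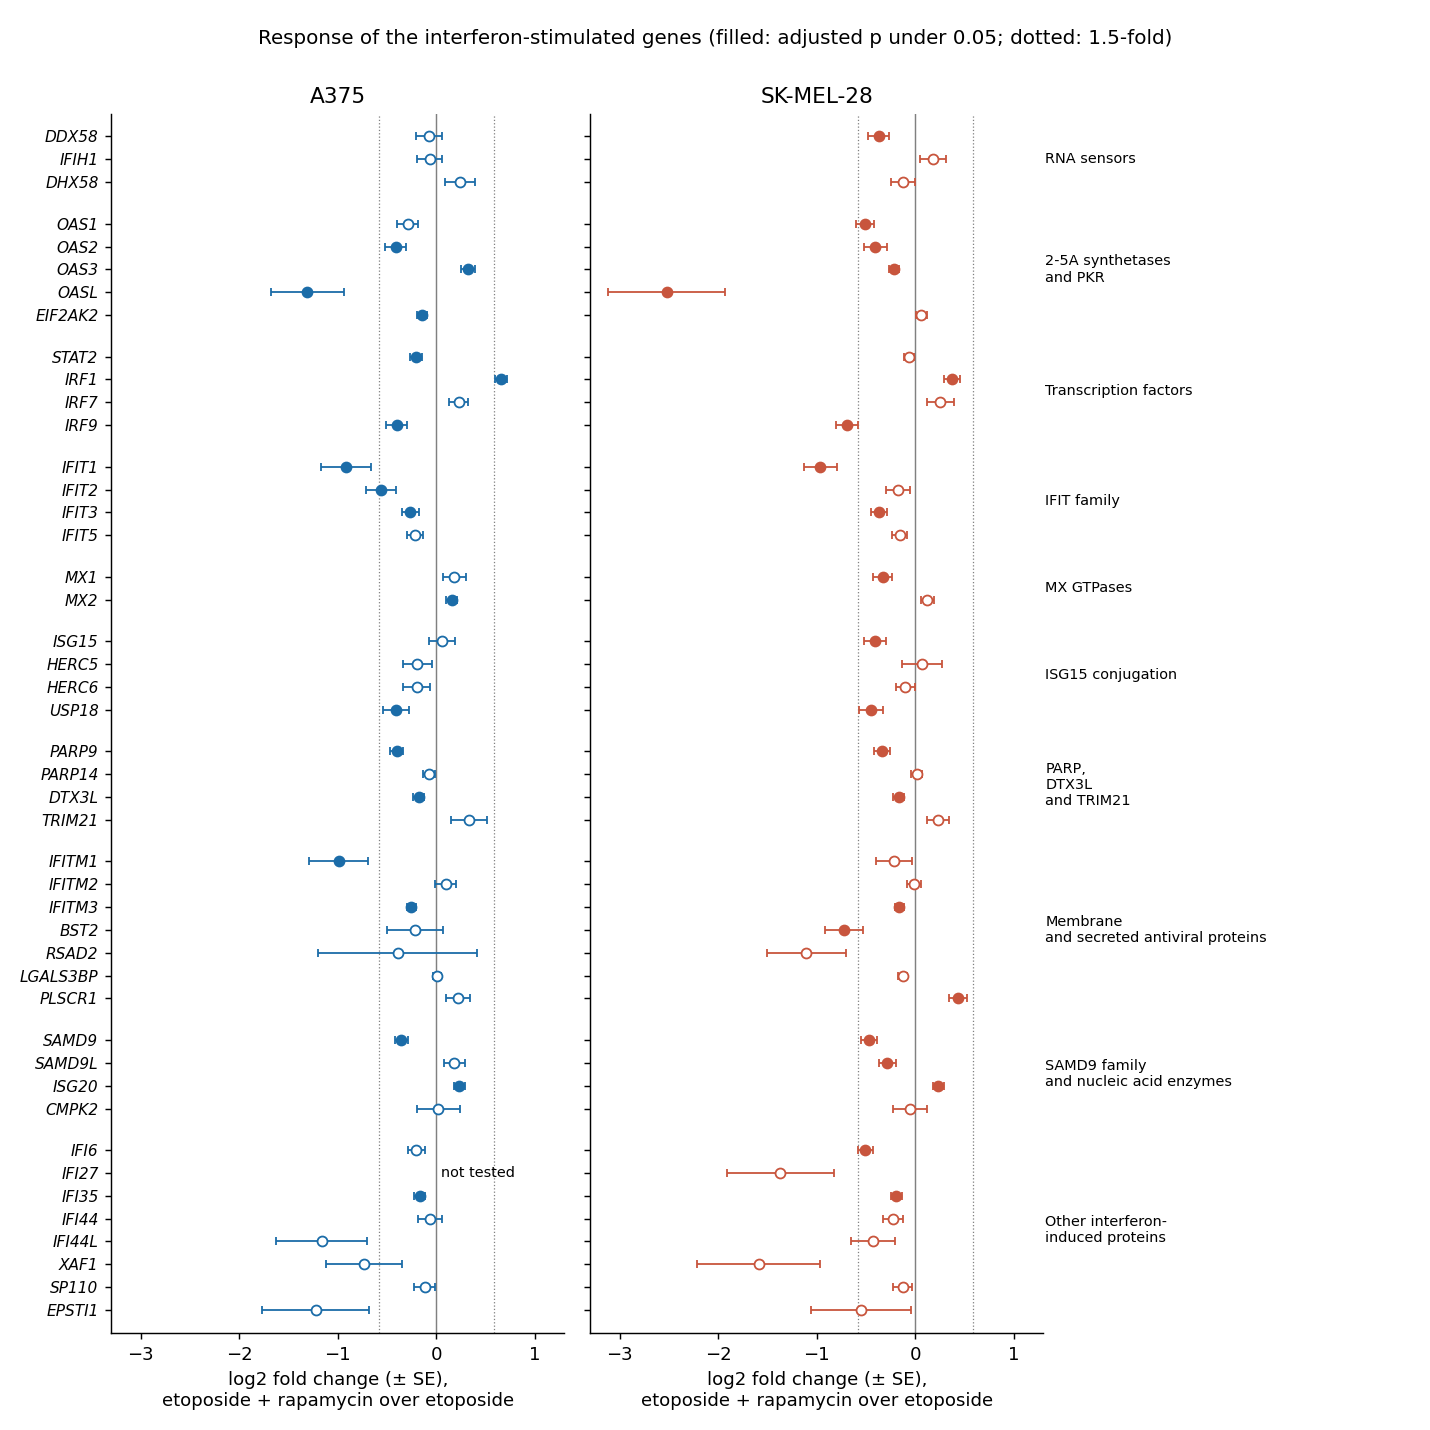
Log2 fold change (± SE) of etoposide + rapamycin over etoposide for the 45 genes in A375 (left) and SK-MEL-28 (right), by role, with filled points at an adjusted p under 0.05 and dotted lines at 1.5-fold. Most points lie left of 0, 30 of 44 in A375 and 35 of 45 in SK-MEL-28; IRF1 and ISG20 lie to the right with filled points in both.

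**Figure D4:**
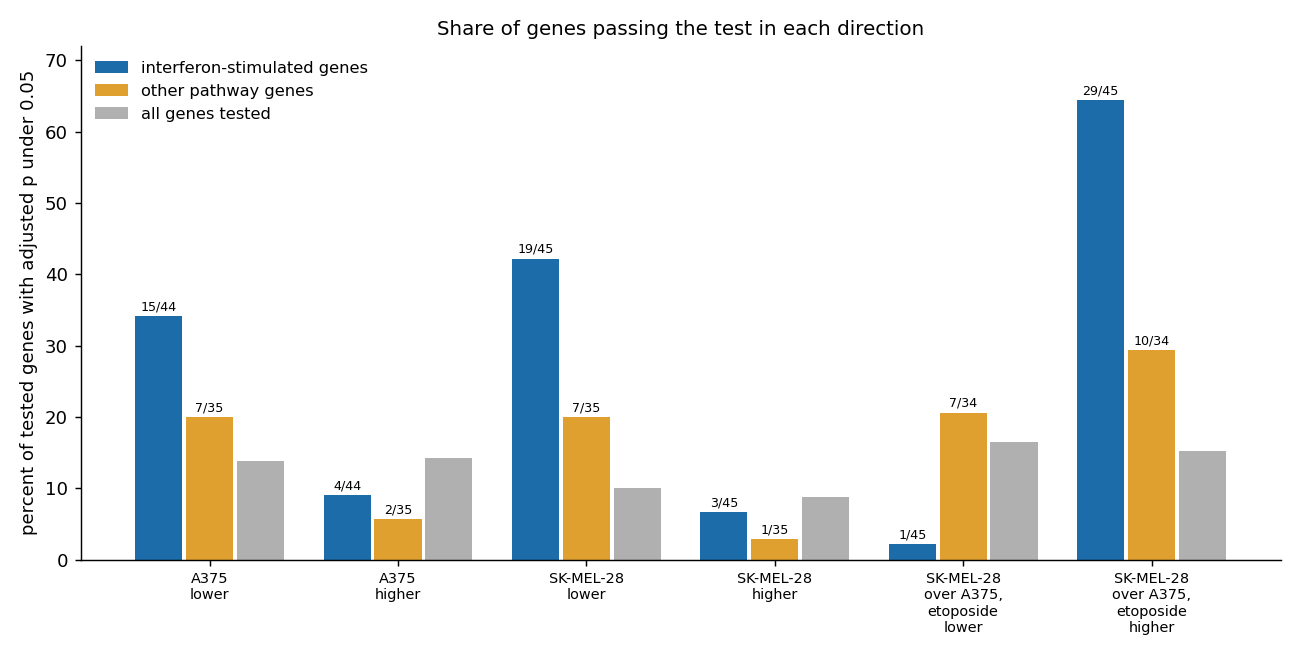
Percent of tested genes with an adjusted p under 0.05, lower or higher, among the interferon-stimulated genes (blue, with counts), 44 other genes of the pathway (orange, with counts) and all genes (grey), for rapamycin in each line and for SK-MEL-28 over A375 under etoposide. The blue bars stand highest for genes lower with rapamycin (34.1% and 42.2%) and for genes higher in SK-MEL-28 (64.4%).

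Among the transcription factors, IRF1 and IRF9 moved in opposite directions in both lines. IRF1 (chr5:132440440-132508719, minus strand), which binds response elements in many of these promoters, was at 29.2, 29.8 and 27.2 CPM in the A375 etoposide libraries and at 45.7, 44.9 and 45.9 CPM with rapamycin. The SK-MEL-28 libraries stood at 24.7, 30.5 and 27.6 CPM under etoposide and at 35.1, 36.0 and 36.1 CPM with rapamycin. All 3 libraries with rapamycin were above all 3 without it in each line. IRF1 rose by a log2 fold change of 0.66 (SE 0.063, adjusted p = 1.35e-05) in A375 and 0.37 (SE 0.081, adjusted p = 0.00694) in SK-MEL-28. An antisense gene, IRF1-AS1, overlaps it, and without strand the reads of the 2 cannot be told apart. The same limit holds for the other listed genes that overlap an annotated gene on the opposite strand, among them OAS1, OAS2, OAS3, IFIT1, IFIT2, IFIT3, IFITM1, IFITM3, IFI6, ISG15 and MX1.

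IRF9 (chr14:24161234-24168043, plus strand), the DNA-binding partner of STAT2, was at 14.7, 17.4 and 15.4 CPM in A375 under etoposide and at 12.1, 13.2 and 10.8 CPM with rapamycin. Its SK-MEL-28 values were 23.2, 22.2 and 19.5 CPM without rapamycin and 11.5, 14.9 and 13.9 CPM with it. Every library with rapamycin was below every library without it in the same line. IRF9 fell by a log2 fold change of -0.40 (SE 0.109, adjusted p = 0.0154) in A375, where the adjusted p was 0.0678 without etoposide + rapamycin replicate 3 and 0.0654 without etoposide replicate 2. In SK-MEL-28 it fell by -0.69 (SE 0.111, adjusted p = 0.000829). The assembled locus of IRF9 also carries RNF31, a ubiquitin ligase subunit, whose log2 fold changes were 0.18 (adjusted p = 0.107) and 0.11 (adjusted p = 0.264). STAT2 fell in A375 (log2 fold change -0.21, adjusted p = 0.0276) and was at -0.07 (adjusted p = 0.423) in SK-MEL-28. IRF7, which amplifies interferon transcription, did not pass the test in either line, with 0.23 (adjusted p = 0.10) and 0.25 (adjusted p = 0.233).

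The oligoadenylate synthetases OAS1, OAS2 and OAS3 make the messenger that activates RNase L, OASL is a relative without that activity that aids RNA sensing, and EIF2AK2 encodes PKR, which stops translation on double-stranded RNA. In A375, 3 of these 5 genes fell (OAS2, OASL, EIF2AK2) and OAS3 rose, and in SK-MEL-28 the 4 synthetase-family genes fell. OASL (chr12:121017763-121039246, minus strand) had 33, 33 and 24 counts in the A375 etoposide libraries and 8, 14 and 14 with rapamycin. Its counts in SK-MEL-28 were 50, 54 and 47 under etoposide and 17, 8 and 0 with rapamycin. Few counts lay behind these values. The groups did not overlap in either line, where 21.1% (A375) and 18.1% (SK-MEL-28) of all genes were lower without overlap. OASL fell by a log2 fold change of -1.31 (SE 0.368, adjusted p = 0.0185) in A375, where the adjusted p was 0.0549, 0.0654 and 0.0764 without etoposide replicates 1 and 2 and etoposide + rapamycin replicate 1, and 0.0861 in one fit of all 12 libraries. In SK-MEL-28 the log2 fold change was -2.52 (SE 0.595, adjusted p = 0.0101) and ran from -3.51 to -1.93 with 1 library left out; DESeq2 gave an adjusted p of 0.0811 there, and none in A375.

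OAS3 (chr12:112938051-112976460, plus strand) was the one gene of the 45 whose response differed between the lines (2.22%, against 5.62% of 20101 genes). In A375 it was at 56.6, 46.4 and 48.0 CPM under etoposide and at 61.8, 61.6 and 65.7 CPM with rapamycin. SK-MEL-28 libraries had OAS3 at 65.1, 63.6 and 60.9 CPM under etoposide and at 56.8, 54.7 and 51.8 CPM with rapamycin. The groups separated in both lines, upward in A375 and downward in SK-MEL-28. The log2 fold changes were 0.32 (SE 0.071, adjusted p = 0.00509) and -0.22 (SE 0.055, adjusted p = 0.0147), and the test of their difference gave -0.53 (SE 0.095, adjusted p = 0.00367). Without SK-MEL-28 etoposide + rapamycin replicate 3 the change in SK-MEL-28 alone was -0.18 with an adjusted p of 0.101, while the difference between lines passed in each of its 20 other fits, with adjusted p up to 0.0144. MX1 and SAMD9L came next in that test, with differences of -0.51 (adjusted p = 0.0523) and -0.46 (adjusted p = 0.0509). The neighbours OAS1 and OAS2 were at -0.29 (adjusted p = 0.0623) and -0.41 (adjusted p = 0.0139) in A375 and at -0.51 (adjusted p = 0.00216) and -0.41 (adjusted p = 0.0319) in SK-MEL-28.

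The IFIT genes encode proteins that bind foreign RNA and hold back its translation, and the 4 listed here lie within 137912 bases of chromosome 10. All 4 had negative log2 fold changes in both lines: IFIT1, IFIT2 and IFIT3 fell in A375, and IFIT1 and IFIT3 in SK-MEL-28. IFIT1 (chr10:89392546-89406487, plus strand) had 132, 102 and 62 counts in the A375 etoposide libraries and 53, 54 and 48 with rapamycin. Counts in SK-MEL-28 were 368, 335 and 348 under etoposide and 233, 145 and 141 with rapamycin. Groups were apart in both lines. IFIT1 fell by -0.92 (SE 0.255, adjusted p = 0.0173) in A375 and -0.96 (SE 0.164, adjusted p = 0.00129) in SK-MEL-28. In A375 the adjusted p was 0.0755, 0.0521 and 0.0673 without etoposide replicates 1 and 2 and etoposide + rapamycin replicate 3, with -0.68 on the log2 scale in the first of these, and 0.0597 when every gene with 1 count was tested. IFIT2 was at -0.56 (adjusted p = 0.0165) and -0.18 (adjusted p = 0.336), IFIT3 at -0.26 (adjusted p = 0.0351) and -0.37 (adjusted p = 0.0054), and IFIT5 at -0.22 (adjusted p = 0.0633) and -0.16 (adjusted p = 0.188).

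Of the 7 membrane and secreted antiviral proteins, IFITM1 and IFITM3 fell in A375, and IFITM3 and BST2 fell and PLSCR1, a phospholipid scramblase, rose in SK-MEL-28. IFITM3 (chr11:319676-329475, minus strand) was at 144, 156 and 150.4 CPM in A375 under etoposide and at 126, 125 and 128 CPM with rapamycin. SK-MEL-28 libraries were at 315, 321 and 298 CPM without rapamycin and 277, 289 and 271 CPM with it. The groups were apart in both lines. IFITM3 fell by -0.25 (SE 0.046, adjusted p = 0.00142) and -0.16 (SE 0.050, adjusted p = 0.0379). The second was lost, with adjusted p of 0.0611 to 0.152, without any of etoposide replicates 1, 2 and 3 or etoposide + rapamycin replicates 1 and 3 of SK-MEL-28.

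IFITM1 (chr11:310041-315272, plus strand), a plasma membrane member of the same family, had 43, 42 and 35 counts in A375 under etoposide and 16, 22 and 22 with rapamycin. SK-MEL-28 libraries had 146, 169 and 181 counts under etoposide and 180, 117 and 113 with rapamycin. The groups were apart in A375 and overlapped in SK-MEL-28. The log2 fold changes were -0.99 (SE 0.298, adjusted p = 0.0255) and -0.22 (SE 0.179, adjusted p = 0.449), and their difference did not pass (0.78, adjusted p = 0.148). In A375 leaving out any library but etoposide replicate 3 (etoposide replicates 1 and 2, etoposide + rapamycin replicates 1, 2 and 3) gave an adjusted p of 0.0506 to 0.0841. IFITM1 and its close paralog IFITM2 share an assembled locus, so the split of reads between them is uncertain.

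BST2 (chr19:17402939-17405630, minus strand), the tetherin that holds budding viruses at the cell surface, had 46, 34 and 40 counts in A375 under etoposide and 26, 42 and 35 with rapamycin. Its SK-MEL-28 counts were 116, 119 and 159 and, with rapamycin, 87, 55 and 87. The A375 groups overlapped and the SK-MEL-28 groups did not. The log2 fold changes were -0.22 (SE 0.280, adjusted p = 0.618) and -0.72 (SE 0.195, adjusted p = 0.0204). The second had an adjusted p of 0.0699 without etoposide + rapamycin replicate 2 and 0.0950 without etoposide replicate 3, and 0.0582 when every gene with 1 count was tested.

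LGALS3BP (chr17:78971238-78979947, minus strand) was at 804, 812 and 775 CPM in A375 under etoposide and at 813, 791 and 798 CPM with rapamycin. It was at 872, 949 and 967 CPM in SK-MEL-28 under etoposide and at 852, 828 and 876 CPM with rapamycin. The groups overlapped in both lines, with log2 fold changes of 0.0033 (SE 0.040, adjusted p = 0.963) and -0.13 (SE 0.048, adjusted p = 0.0812). RSAD2, which encodes viperin, had 0 to 43 counts per library and did not pass the test in either line (-0.39, adjusted p = 0.765, and -1.11, adjusted p = 0.0765).

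Among the nucleic acid enzymes, ISG20 and SAMD9 moved in opposite directions. ISG20 (chr15:88635670-88656483, plus strand), an RNA exonuclease, was at 67.2, 72.4 and 65.9 CPM in A375 under etoposide and at 83.1, 76.5 and 82.4 CPM with rapamycin. SK-MEL-28 values were 74.2, 69.4 and 71.4 CPM under etoposide and 86.7, 87.2 and 79.4 CPM. The libraries with rapamycin were above the others in each line. ISG20 rose by 0.23 in both (SE 0.055, adjusted p = 0.00713, and SE 0.053, adjusted p = 0.00844), and without SK-MEL-28 etoposide replicate 2 the second adjusted p was 0.0573. SAMD9, a translation-restricting antiviral factor, fell by -0.35 (adjusted p = 0.00191) and -0.47 (adjusted p = 0.0016). Its neighbour and paralog SAMD9L was at 0.18 (adjusted p = 0.212) in A375 and fell by -0.29 (adjusted p = 0.0353) in SK-MEL-28.

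IFI35 (chr17:43006740-43014456, plus strand), a leucine zipper protein, was at 53.0, 56.7 and 54.5 CPM in A375 under etoposide and at 49.1, 46.4 and 51.2 CPM with rapamycin. In the other line its levels were 83.1, 77.6 and 81.3 CPM and, with rapamycin, 73.5, 73.2 and 65.4 CPM. Both lines had lower values with rapamycin in all libraries. IFI35 fell by -0.17 (SE 0.057, adjusted p = 0.0452) and -0.19 (SE 0.057, adjusted p = 0.0302). Each was lost without any of 4 libraries: etoposide replicates 2 and 3 and etoposide + rapamycin replicates 1 and 2 in A375, with adjusted p of 0.101 to 0.175, and etoposide replicates 1, 2 and 3 and etoposide + rapamycin replicate 3 in SK-MEL-28, with 0.0502 to 0.20.

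IFI6 (chr1:27666064-27672212, minus strand), a small membrane protein, was at 26.6, 27.6 and 29.6 CPM in A375 under etoposide and at 25.3, 22.0 and 25.8 CPM with rapamycin. The SK-MEL-28 levels were 40.5, 39.5 and 43.7 CPM under etoposide and, with rapamycin, 31.7, 27.1 and 28.4 CPM. Neither line had overlapping groups, and the gap was wider in SK-MEL-28. The log2 fold changes were -0.20 (SE 0.085, adjusted p = 0.0975) and -0.51 (SE 0.076, adjusted p = 0.000527), and their difference did not pass (-0.30, adjusted p = 0.137).

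**Figure D5:**
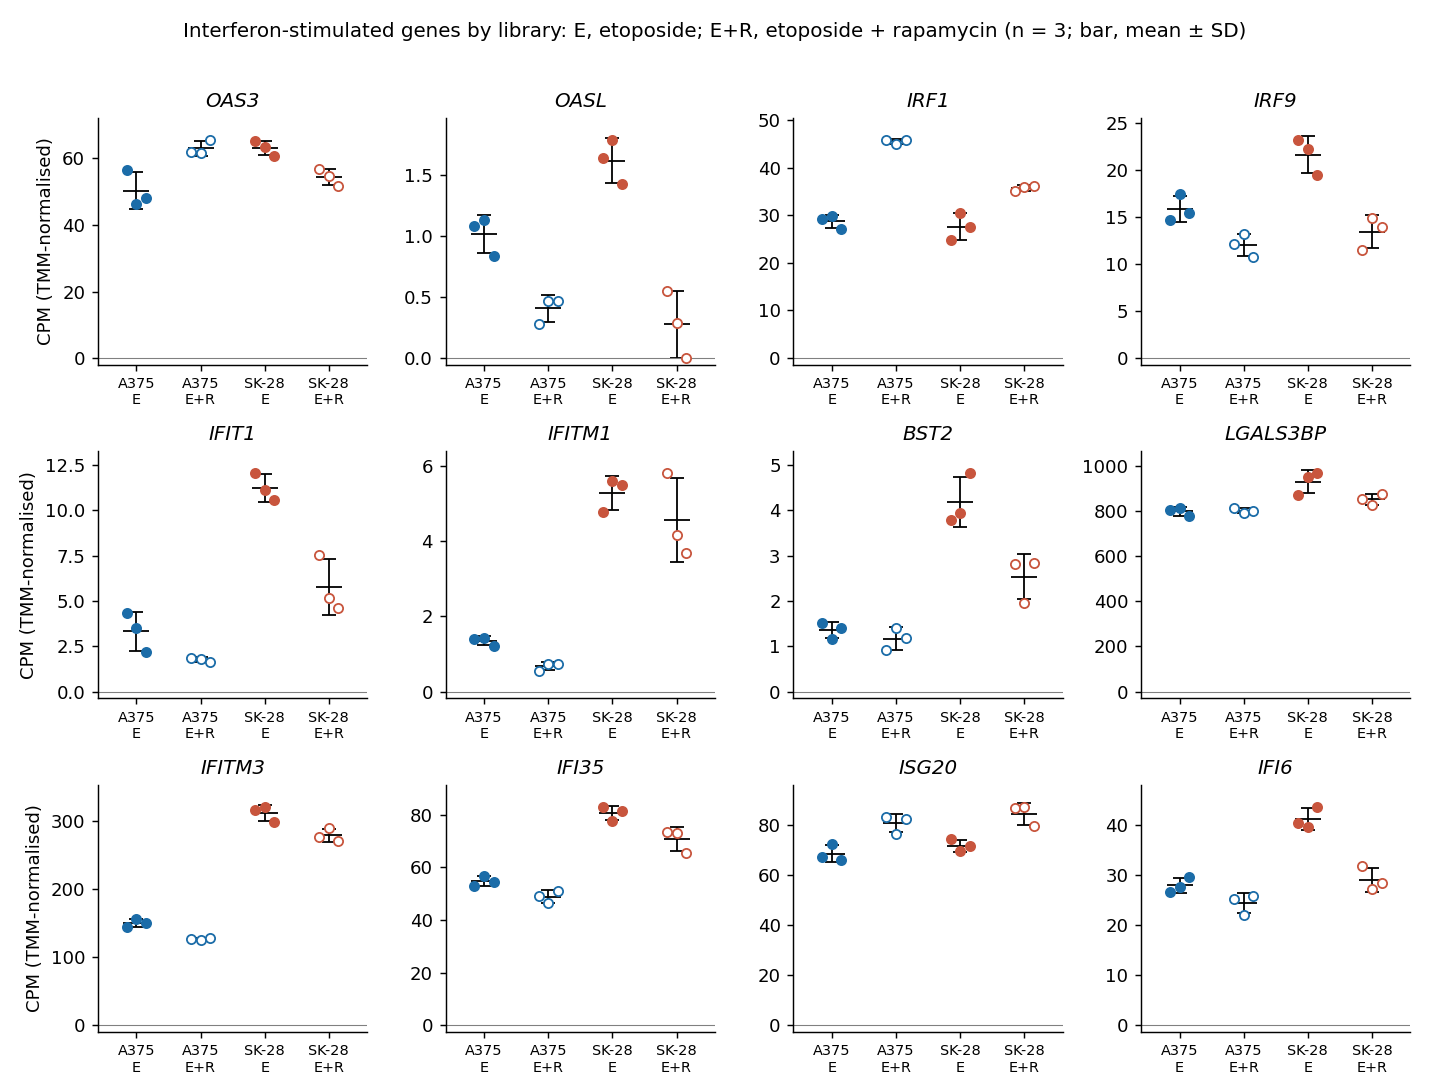
TMM-normalised CPM of 12 genes in each of the 12 libraries (linear axes with 0 marked; points, libraries; bars, mean ± SD, n = 3; filled, etoposide (E); open, etoposide + rapamycin (E+R); SK-28, SK-MEL-28). OASL, IRF9 and IFIT1 sit lower with rapamycin in both lines, IRF1 and ISG20 sit higher in both, and OAS3 goes up in A375 and down in SK-MEL-28.

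None of the genes in the remaining groups was called in either line. Of the RNA sensors, DDX58, the older symbol of RIG-I, fell in SK-MEL-28 (-0.37, adjusted p = 0.0269), IFIH1 (MDA5) and DHX58 (LGP2) did not pass, and none of the 3 passed in A375. Of the MX GTPases, which trap viral nucleocapsids, MX2 rose in A375 (0.16, adjusted p = 0.0498) and MX1 fell in SK-MEL-28 (-0.33, adjusted p = 0.0281). In the ISG15 system, USP18, which removes the ubiquitin-like ISG15 and damps the receptor, fell in both lines (-0.41, adjusted p = 0.0333, and -0.45, adjusted p = 0.0211), and ISG15 itself fell in SK-MEL-28 (-0.41, adjusted p = 0.0254). HERC5 and its neighbour HERC6 did not pass in either line. PARP9 and DTX3L, which act as a complex and start from the shared promoter shown above, both fell: PARP9 by -0.40 (adjusted p = 0.000965) and -0.34 (adjusted p = 0.0100), and DTX3L by -0.18 (adjusted p = 0.0258) and -0.17 (adjusted p = 0.0384). PARP9 and DTX3L overlap on opposite strands and may share reads, so their values are not independent. PARP14, next to them, was at -0.07 (adjusted p = 0.41) and 0.01 (adjusted p = 0.899), and TRIM21, an antibody receptor of the cytosol, did not pass. CMPK2, XAF1, SP110, IFI44, IFI44L and EPSTI1 did not pass in either line, and IFI27 did not in SK-MEL-28. Several of these had large log2 fold changes on few counts. XAF1 (7 to 78 counts per library) was at -0.73 in A375 and -1.59 in SK-MEL-28. IFI44L (6 to 94 counts) was at -1.16 and -0.43, and EPSTI1 (2 to 21 counts) at -1.23 and -0.55. IFI27 (2 to 32 counts) was at -1.37 in SK-MEL-28. CMPK2, SP110 and IFI44 lay between -0.23 and 0.02 in both lines. When single libraries were left out, DDX58, MX1, MX2, USP18, ISG15 and DTX3L each failed the adjusted p at least once in a line where they had passed, and PARP9 never did.

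The genes with and without an ISRE core in their promoter window are set side by side here. In A375 the median log2 fold change was -0.20 for 25 genes with the core and -0.17 for 11 without it, and in SK-MEL-28 it was -0.22 for 26 and -0.19 for 11. By position, 23 of the 45 genes lie in 9 clusters of neighbours no more than 250000 bases apart, among them the IFIT, OAS and IFITM genes.

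Under etoposide alone, these genes were mostly higher in SK-MEL-28 than in A375. The comparison uses the etoposide libraries that also serve as controls above. Of 45 genes, 29 were higher in SK-MEL-28 (64.4%, against 15.2% of all 19025 genes tested) and HERC5 was lower (2.22%, against 16.5%). The median log2 difference was 0.41, against -0.0025 for all genes, and 40 of 45 were positive. For all genes the quartiles of this difference were -0.26 and 0.22, against -0.22 and 0.22 for rapamycin in A375. Past 1.5-fold, 12 genes were higher and HERC5 was lower, 13 of 45 against 13.0% of all genes, of which 5.70% were higher and 7.32% lower. The groups did not overlap in 32 genes that were higher and in HERC5, against 22.4% and 22.3% of all genes. IFITM1 differed by 1.96 (SE 0.183, adjusted p = 3.36e-06), IFIT1 by 1.75 (SE 0.194, adjusted p = 1.62e-05), BST2 by 1.62 (SE 0.206, adjusted p = 5.37e-05) and IFITM2 by 1.48 (SE 0.096, adjusted p = 1.21e-07). HERC5, the main ligase of ISG15, differed by -1.27 (SE 0.155, adjusted p = 3.81e-05). Among the genes that did not pass, IRF1, ISG20, IRF7, MX2 and IFIH1 had differences from -0.21 to 0.07. Others that did not pass had larger differences, among them RSAD2 (1.24), XAF1 (1.04), OASL (0.66), TRIM21 (0.37) and ISG15 (0.32). Across fits that each leave out 1 library, 24 of the 29 remained higher in every fit.

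The other genes of the pathway, 44 on a list, are given by their place in it. The list holds 8 interferon genes and none of the IFNA genes, whose counts are not described here. Of the 8, IFNK, IFNL1, IFNL2 and IFNL3 had 0 counts in all 12 libraries. As a counting limit, 0 was taken as up to 3 counts, or 0.107 CPM at most in a library. A higher level can still give 0 counts. IFNB1, IFNW1 and IFNG had at most 4 counts, and IFNE had 14 to 50. IFNE, the only gene of these 8 that was tested, was at 0.57 (adjusted p = 0.362) and -0.15 (adjusted p = 0.823). Of 35 genes tested in A375, 7 fell, against 13.8% of all genes, and 2 rose (5.71%, against 14.3%), with none past 1.5-fold, against 5.89% of all genes. Of 35 in SK-MEL-28, 7 fell, against 10.1% of all genes, and IFNGR2 rose (2.86%, against 8.83%), and GBP2 and SOCS3 were past 1.5-fold (5.71%, against 4.99%). GBP2 and TBK1 were among those that fell in both lines.

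TBK1, the kinase that activates IRF3, fell by -0.41 (SE 0.060, adjusted p = 0.000337) and -0.23 (SE 0.059, adjusted p = 0.0164), the second with 0.0508 to 0.0600 without SK-MEL-28 etoposide replicate 1 or 3 or etoposide + rapamycin replicate 1 or 2. GBP2, a guanylate-binding protein, fell by -0.50 (SE 0.090, adjusted p = 0.00131) and -0.61 (SE 0.086, adjusted p = 0.000332). SOCS3, a feedback inhibitor of JAK kinases, was at 0.07 (SE 0.103, adjusted p = 0.683) in A375 and fell by -0.66 (SE 0.132, adjusted p = 0.00376) in SK-MEL-28.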

How the data were processed

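PolyA-selected RNA of 12 libraries was sequenced, 3 per group. The authors aligned reads with HISAT2 to hg38, assembled and quantified genes with StringTie, and deposited raw counts per gene and library, which are whole numbers without normalization. How coverage became counts, and whether strand was used, is not given in the sources used here. Rows that name no gene (0.000991% to 0.00529% of counts) were left out. The 45 genes, the 44 other pathway genes and the markers were chosen with earlier results of these data known.

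Counts were tested with edgeR 4.0.16 (R 4.3.3): filterByExpr, TMM, glmQLFit and glmQLFTest, with p-values adjusted by Benjamini-Hochberg over every gene in the fit. Each SE was worked back from this test, as the size of the log2 fold change over the square root of the F statistic. It is therefore approximate. A375 and SK-MEL-28 had separate fits, the difference between lines came from an interaction over all 12 libraries, and the lines under etoposide were compared in those 6. A gene rose, fell or passed at an adjusted p under 0.05, and was called with a fold change over 1.5 as well. The statistics were tested on simulated data. DESeq2 1.42.0, other scalings and filters, a replicate block and leaving out each library were tried as alternatives. Given in full are genes called in either line or differing between lines, then those with most CPM per kilobase, up to 12; pathway genes are named where called, or past the adjusted p in both lines (some listed genes are not reported here), and genes differing in response between lines stand in the closing section. Depth was 28189501 to 32499337 counts per library, and counting limits cover counting error only. Replicates of a group are separate samples by their labels; the p-values measure the spread between them. Positions and lengths came from GENCODE 44 (GRCh38), where 113 listed symbols matched directly and 3 through an older symbol.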

Additional observations from a re-analysis of the deposited data

Results flagged for a closer look

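The response to rapamycin differed between A375 and SK-MEL-28, by the edgeR interaction test, for 1 of 45 interferon-stimulated genes and 4 of 36 other genes of the pathway (11.1%, against 5.62% of all genes). OAS3 differed by -0.53 (adjusted p = 0.00367), TYK2 by -0.31 (adjusted p = 0.0309), SOCS3 by -0.72 (adjusted p = 0.0226), IKBKE by -0.44 (adjusted p = 0.0368) and IFI16 by 0.36 (adjusted p = 0.0142), each as SK-MEL-28 minus A375 on the log2 scale. TYK2, the kinase of IFNAR1, was at 0.43 in A375 and 0.11 in SK-MEL-28. IFI16, a DNA sensor, was at -0.51 and -0.16, and IKBKE, a kinase related to TBK1, at 0.22 and -0.23. Among the alternatives, including each library left out in turn, OAS3 and IFI16 passed in all 20, with adjusted p up to 0.0144 and 0.0499. SOCS3 passed in 15 of 20, with adjusted p of 0.0512 to 0.0663 in the other 5, which each left out 1 library (A375 etoposide replicate 3, A375 etoposide + rapamycin replicates 1 and 3, SK-MEL-28 etoposide replicate 2, SK-MEL-28 etoposide + rapamycin replicate 3). TYK2 passed in 11 of 20, with adjusted p up to 0.0969, and IKBKE in 9 of 20, with adjusted p up to 0.107. Groups of 3 libraries were too small for a test of single samples that stand apart.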

How the results depend on the processing

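No gene that passed the test changed direction under the alternatives run. With 1 library left out, the median log2 fold change ran from -0.20 to -0.13 in A375 and, in SK-MEL-28, from -0.22 to -0.20. The number of the 45 genes called depended on the fold threshold: edgeR's test against the fold change itself (glmTreat) gave 0 in A375 and 0 in SK-MEL-28 (4 and 5 at an unadjusted p under 0.05), DESeq2 with the usual rule gave 3 and 3, and no fold threshold gave 19 and 22. For the other pathway genes these were 0 (fold test) and 8 (no threshold) in SK-MEL-28 and 9 (no threshold) in A375, and 30 of the 45 genes differed between lines under etoposide with no threshold. Leaving out 1 library gave 1 to 4 called genes in A375 (1 without etoposide replicate 1, 2 without etoposide replicate 2, or without replicate 1 or 3 of etoposide + rapamycin), 3 to 5 in SK-MEL-28, 12 to 15 between lines, and 1 to 2 pathway genes in SK-MEL-28, where 1 was left without etoposide replicate 2, or without replicate 3 of etoposide + rapamycin. The count whose response differed between lines was 1 to 3 with a library left out, and 3 with DESeq2, RLE size factors, a filter of 10 counts in every library, counts halved or rows of one name summed. Requiring 1 count in any library, which tests 39259 and 38686 genes, left 8 genes lower in A375 and 9 in SK-MEL-28; IFI35 in both lines (adjusted p = 0.118 and 0.0926) and IFITM3 in SK-MEL-28 (0.0825) then no longer passed, nor did IFI35 in A375 with DESeq2 (0.0544). Same-numbered replicates did not deviate together (correlations from -0.03 to 0.02). These values cannot show whether the experiment paired samples by number, which the labels do not say. A replicate block gave 3 called genes in A375, 5 in SK-MEL-28, 1 that differed in response and 13 between lines. With that block IFITM1 in A375 was at an adjusted p of 0.0518 and IFI35 in A375 at 0.0926.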
